A study of Mus musculus with 4 samples.

Results

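The core glycolysis enzymes described here are 10 genes: Gpi1, Pfkl, Aldoa, Tpi1, Gapdh, Pgk1, Pgam1, Eno1, Pkm and Ldha. They were chosen by symbol, 1 gene for each step from glucose-6-phosphate to lactate, with earlier results of these data already known. All 10 were found, among 32285 genes, in both libraries. Aldoa had 2 feature rows under 1 symbol, which were summed. Its second row held 111 and 41 UMIs (unique molecular identifiers, each tagging 1 captured RNA molecule) in the homeostasis and 5-FU libraries.

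Glycolysis splits glucose into pyruvate in the cytosol and yields ATP without oxygen. Quiescent hematopoietic stem cells, which reside in a poorly oxygenated niche, have been described as relying on glycolysis more than on mitochondrial respiration, and the hypoxia factor HIF-1α and the transcription factor Myc both bind promoters of these genes. Enzyme activity is also set by allosteric control and by the enzymes' own modifications, so an mRNA level is no measure of flux.

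The data are single-cell RNA-Seq of LSK cells (negative for lineage markers, positive for Sca-1 and cKit), the bone marrow compartment of stem cells and multipotent progenitors, sorted from C57BL/6 mice. One library was made at homeostasis, from male mice per the methods, and the other 9 days after 100 mg/kg 5-fluorouracil (5-FU), which kills dividing cells. Wild-type cells came from Sin3B F/F mice and knockout cells from Sin3B F/F; Vav1-iCre mice. All animals carried the floxed alleles, and wild-type mice had no Cre. Vav1-iCre acts throughout the blood lineage, from the embryo on, and is not restricted to stem cells. Each genotype in each library was a pool of 2 mice told apart from the other genotype by an antibody hashtag. The labels name the condition only, and the link from hashtag to genotype is from the methods.

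The 4 pools had no replicate, so no test was made. Each value has an interval that covers counting error at the 95% level only, and a spread between mice is not in it. Condition and library coincide, so the libraries cannot be told apart from the conditions and are described separately. The pools held 31901720 to 82876977 UMIs. Each member had at least 8064 UMIs over all barcodes called as cells in a library. That count precedes genotype calls and filters, so the pools hold fewer.

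Cells were grouped as LT-HSC-like (long-term stem cell markers), myeloid-primed-like, megakaryocyte-erythroid-primed-like or lymphoid-primed-like, the last 3 together being called lineage-primed. In wild-type cells at homeostasis these classes held 1646, 1070, 681 and 1358 of 10184 cells, and after 5-FU 768, 668, 719 and 241 of 4855. A class was named where over 50% of its markers were raised. A further cluster in each library raised 4 LT-HSC markers and was left unnamed, at homeostasis 953 cells of wild type and 556 of knockout, after 5-FU 567 of wild type and 501 of knockout. Knockout cells numbered 4108 and 3307, of which 1282 and 786 were LT-HSC-like. The LT-HSC-like share was 16.2% in wild type and 31.2% in knockout at homeostasis, and 15.8% and 23.8% after 5-FU. The summed LT-HSC markers stood at 2290 CPM (UMIs of a gene scaled to 1000000 UMIs per pool) in wild-type LT-HSC-like cells against 423 to 967 CPM in the primed classes at homeostasis, and at 1228 against 109 to 409 CPM after 5-FU. Sin3b itself fell from 81.7 CPM in wild type to 23.3 CPM in knockout at homeostasis and from 113 to 15.1 CPM after 5-FU. A rule of at least 80% of hashtag UMIs kept 869 knockout cells at homeostasis and 4054 after 5-FU. Whether wild-type cells called as knockout are part of the remaining Sin3b was not tested.

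Promoter sequence is shown for 4 of the members that differed between the groups below and whose windows hold the letters ACGTG or GCGTG, the cores recognised by HIF-1. Other members, Aldoa and Eno1 among them, also met these conditions and are not printed. The second Ldha window, which holds GCGTG, is not printed either. RefSeq (GRCm38.p6) gave 16 windows of 250 bases before a transcription start for the 10 members, several members having more than 1 start. The windows printed are chr6:125165774-125166023 (minus strand) for Gapdh, chrX:106186850-106187099 (plus strand) for Pgk1, chr19:41911621-41911870 (plus strand) for Pgam1 and chr7:46845554-46845803 (plus strand) for Ldha. They read 5′ to 3′ towards the start, and capitals mark ACGTG or GCGTG on either strand, with matches that overlap merged.
Gapdh: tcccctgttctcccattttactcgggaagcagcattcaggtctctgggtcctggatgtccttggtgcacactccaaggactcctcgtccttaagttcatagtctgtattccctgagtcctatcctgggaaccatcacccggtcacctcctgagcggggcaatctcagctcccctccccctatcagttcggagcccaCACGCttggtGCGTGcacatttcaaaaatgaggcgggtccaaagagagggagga
Pgk1: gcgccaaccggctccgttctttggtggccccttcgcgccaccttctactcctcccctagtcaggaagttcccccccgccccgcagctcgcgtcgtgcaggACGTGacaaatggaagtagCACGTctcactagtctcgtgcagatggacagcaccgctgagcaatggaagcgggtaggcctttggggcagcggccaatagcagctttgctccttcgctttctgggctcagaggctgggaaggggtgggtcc
Pgam1: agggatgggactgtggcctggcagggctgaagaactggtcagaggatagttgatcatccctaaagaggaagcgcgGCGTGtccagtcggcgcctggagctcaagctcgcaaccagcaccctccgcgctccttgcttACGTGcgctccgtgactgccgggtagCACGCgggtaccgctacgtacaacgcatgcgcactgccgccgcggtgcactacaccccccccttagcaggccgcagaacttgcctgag
Ldha: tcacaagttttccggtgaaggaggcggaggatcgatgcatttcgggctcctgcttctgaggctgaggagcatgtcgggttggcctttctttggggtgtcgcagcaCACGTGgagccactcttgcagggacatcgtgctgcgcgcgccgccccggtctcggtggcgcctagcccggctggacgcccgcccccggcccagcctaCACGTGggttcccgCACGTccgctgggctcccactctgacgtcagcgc
ACGTG or GCGTG was found in at least 1 window of 8 of the 10 members and in 12 of the 16 windows. Windows of 1 member can overlap, as for Aldoa and Eno1, and the same site is then counted more than once. Among 32851 RefSeq windows of the same length, 38.6% held either motif, 16.6% ACGTG and 28.2% GCGTG. These are shares of single windows and not of genes. Gpi1 and Tpi1 held neither in their windows. The palindrome CACGTG, the E-box that Myc binds and which contains ACGTG, stood in a window of Ldha alone among the members and in 6.02% of all windows. A match of letters is a description of the window and not a binding site. Aldoa held ACGTG in 2 of its 3 windows, and this is the same site, as these 2 windows overlap.

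The first comparison asked at which level the enzymes stood in stem cells and in cells already primed towards a lineage. In wild-type cells the summed members were lower in LT-HSC-like cells, at 1233 CPM (1211 to 1254) against 1520 CPM (1506 to 1535) in lineage-primed cells at homeostasis. After 5-FU they stood at 2054 CPM (2021 to 2089) against 2875 CPM (2853 to 2897). The log2 ratio of LT-HSC-like to lineage-primed cells was -0.30 (-0.33 to -0.27) at homeostasis and -0.48 (-0.51 to -0.46) after 5-FU. Per cell, LT-HSC-like cells held 7.79 member UMIs against 13.4 at homeostasis and 18.3 against 41.4 after 5-FU. Their total RNA was lower too, with 6319 against 8832 UMIs per cell and 8908 against 14384, so the levels per cell differed by more than the CPM levels.

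The order of the classes was the same in all 4 pools, with the summed members highest in myeloid-primed-like cells, then megakaryocyte-erythroid-primed-like, lymphoid-primed-like and LT-HSC-like cells. In wild type these levels were 1798, 1472, 1261 and 1233 CPM at homeostasis and 3433, 2465, 2182 and 2054 CPM after 5-FU. In knockout they were 1774, 1318, 1247 and 1222 CPM at homeostasis and 3730, 2463, 2398 and 2021 CPM after 5-FU. The last 2 classes did not differ beyond their counting intervals at homeostasis in either genotype. Megakaryocyte-erythroid-primed-like and lymphoid-primed-like cells did not differ beyond theirs in either knockout pool. Against each class in turn, LT-HSC-like wild-type cells had a log2 ratio of -0.54 (-0.58 to -0.51) against myeloid-primed-like, -0.26 (-0.29 to -0.22) against megakaryocyte-erythroid-primed-like and -0.03 (-0.07 to 0.00) against lymphoid-primed-like cells at homeostasis. After 5-FU the same ratios were -0.74, -0.26 and -0.09.

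**Figure D1:**
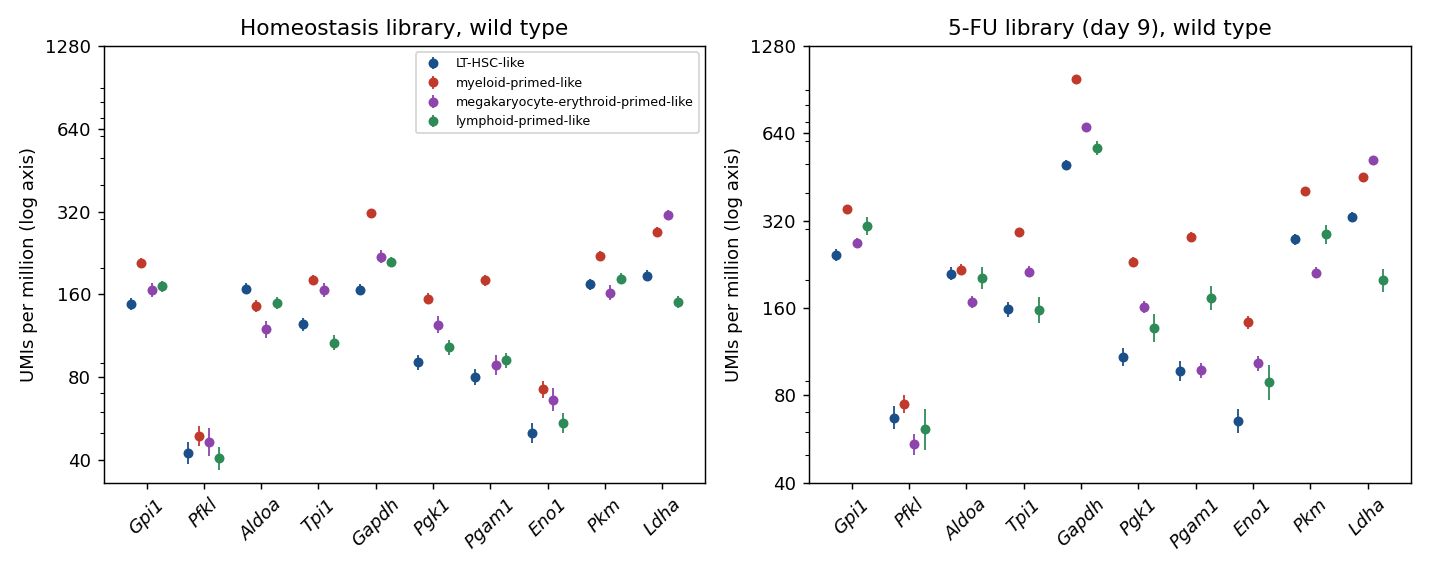
Level of each of the 10 enzymes, in CPM on a log axis, in the 4 classes of wild-type cells, with the homeostasis library at left and the 5-FU library at right. Bars on the points are 95% counting intervals, and most members are highest in myeloid-primed-like cells, whereas Ldha is highest in megakaryocyte-erythroid-primed-like cells and, at homeostasis, Aldoa in LT-HSC-like cells.

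Counts below call a gene higher or lower when the greater of its 2 levels was at least 25% above the lesser, with a counting interval that left out equality, among genes with at least 50 UMIs in the 2 pools together. In wild-type cells at homeostasis, 5 of the 10 members were lower in LT-HSC-like cells, and none was higher. Of all 13340 genes tested, 17.6% were lower and 26.1% higher. After 5-FU 7 of 10 were lower, against 18.3% of 11809 genes, and none was higher, against 37.4%. The median log2 ratio of the members was -0.32 at homeostasis and -0.54 after 5-FU, beside 0.07 and 0.20 over all genes tested.

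The enzymes of the energy-investing steps differed unequally. Gpi1, which isomerises glucose-6-phosphate, stood at 148 CPM in LT-HSC-like and 185 CPM in lineage-primed wild-type cells at homeostasis and at 243 and 309 CPM after 5-FU, log2 ratios of -0.32 and -0.35. Pfkl, the liver-type subunit of phosphofructokinase, the committed step, had ratios of -0.09 (-0.25 to 0.06) and 0.06 (-0.09 to 0.21), both spanning 0. Aldoa, the aldolase that splits fructose-1,6-bisphosphate, was higher in LT-HSC-like cells over all phases. It was at 168 CPM in LT-HSC-like and 141 CPM in lineage-primed cells at homeostasis, a ratio of 0.25 (0.17 to 0.34), and at 210 and 194 CPM after 5-FU, a ratio of 0.12 (0.03 to 0.20). Among non-cycling cells its ratios spanned 0, at 0.03 (-0.07 to 0.13) and -0.06 (-0.17 to 0.05), and with the median gene ratio set to 0 the 5-FU value was -0.08. In knockout cells Aldoa was called higher in LT-HSC-like cells at homeostasis (189 against 130 CPM, 0.54), and stood at 235 against 202 CPM after 5-FU. Tpi1, which interconverts the triose phosphates, had ratios of -0.26 at homeostasis and -0.62 after 5-FU in wild type.

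Of the enzymes of the energy-yielding steps, Gapdh, Pgk1, Pgam1 and Eno1 were called lower in LT-HSC-like cells in both libraries. Gapdh, which oxidises glyceraldehyde-3-phosphate, stood in wild type at 167 CPM in LT-HSC-like, 316 in myeloid-primed-like, 220 in megakaryocyte-erythroid-primed-like and 210 CPM in lymphoid-primed-like cells at homeostasis. The 5-FU values were 499, 985, 671 and 569 CPM. In both libraries LT-HSC-like cells were the lowest class for Gapdh, with ratios to lineage-primed cells of -0.60 (-0.68 to -0.53) and -0.69 (-0.74 to -0.63). Pgk1, which makes the first ATP of the pathway, had ratios of -0.50 (-0.60 to -0.39) and -0.81 (-0.92 to -0.70).

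Pgam1, the phosphoglycerate mutase, had the lowest ratio of the 10 in both libraries. Its wild-type levels were 80.3 CPM in LT-HSC-like, 180 in myeloid-primed-like, 88.9 in megakaryocyte-erythroid-primed-like and 92.2 CPM in lymphoid-primed-like cells at homeostasis. After 5-FU they were 97.2, 282, 97.6 and 173 CPM, so that only the myeloid and lymphoid sides stood clear of LT-HSC-like cells there. The ratios to all lineage-primed cells were -0.65 (-0.76 to -0.54) and -0.96 (-1.08 to -0.84). Eno1, the enolase of the next step, was at -0.36 (-0.50 to -0.22) and -0.87 (-1.02 to -0.73). Pkm, the pyruvate kinase that ends glycolysis, was nearer to equality at -0.15 in both libraries, a direction that depended on the setting. After 5-FU its ratio was 0.29 with 2-fold markers, 0.33 at a coarser clustering, 0.20 with genes that differ between genotypes kept in the clustering and 0.09 among non-cycling cells, and at homeostasis it was 0.05 in knockout cells.

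Ldha, which reduces pyruvate to lactate, had an order of its own. In wild type at homeostasis it stood at 187 CPM in LT-HSC-like, 271 in myeloid-primed-like, 312 in megakaryocyte-erythroid-primed-like and 150 CPM in lymphoid-primed-like cells, and after 5-FU at 330, 454, 516 and 199 CPM. Megakaryocyte-erythroid-primed-like cells were highest and lymphoid-primed-like cells lowest in all 4 pools, with no neighbouring classes overlapping in their intervals. LT-HSC-like cells were therefore below 2 primed classes and above the third for Ldha, at a log2 ratio of 0.32 to lymphoid-primed-like cells at homeostasis and 0.73 after 5-FU. Ldhb, the lactate dehydrogenase subunit that favours the reverse reaction, was in contrast higher in LT-HSC-like than in lineage-primed wild-type cells, at 70.5 against 34.6 CPM at homeostasis (log2 ratio 1.03, 0.89 to 1.17) and 85.7 against 27.6 CPM after 5-FU (1.63, 1.47 to 1.80).

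**Figure D2:**
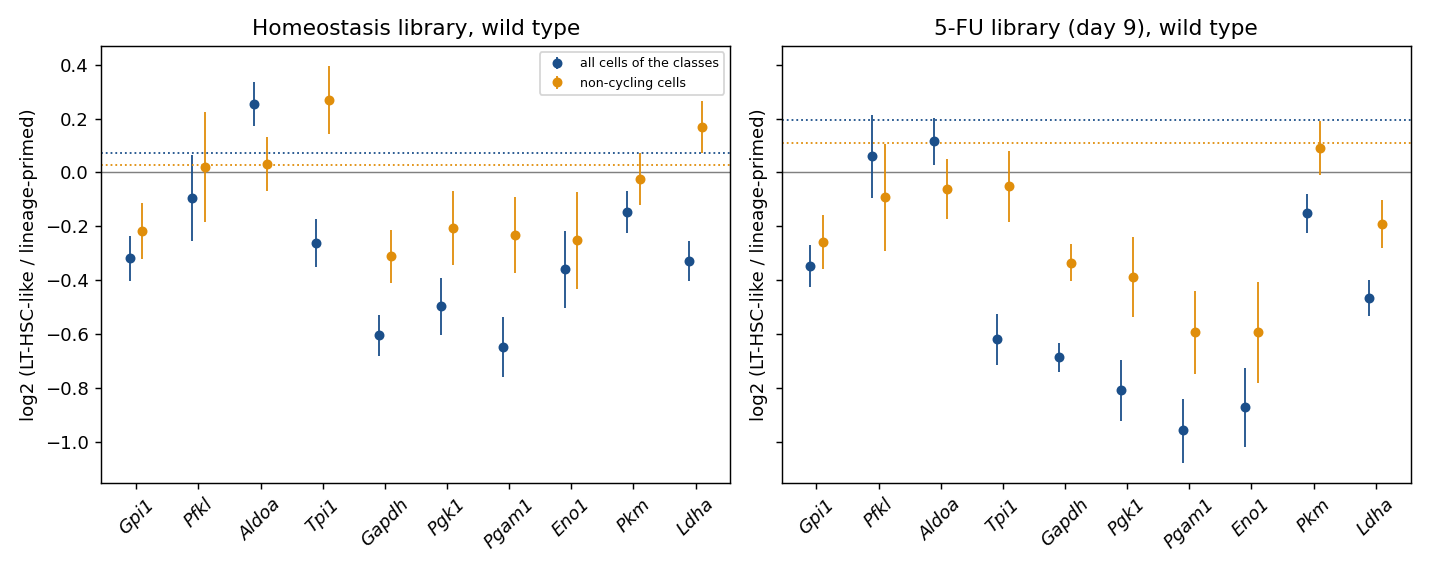
Log2 ratio of LT-HSC-like to lineage-primed wild-type cells for each enzyme, by library, over all cells and over non-cycling cells alone. Bars are 95% counting intervals and dotted lines the median over all genes tested. Gapdh, Pgk1, Pgam1 and Eno1 lie below 0 in both sets. Most ratios are nearer 0 in non-cycling cells, whose mix of primed classes differs from that over all cells.

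The classes differed in cell cycle as well. Of the cells of both genotypes deep enough for a phase call, those called S or G2M from cycle gene scores made up 6.30% and 7.38% in the 2 LT-HSC-like clusters at homeostasis, against 73.2% of myeloid-primed-like, 67.8% of megakaryocyte-erythroid-primed-like and 21.9% of lymphoid-primed-like cells. After 5-FU the shares were 3.74% and 6.39% against 77.5%, 71.2% and 24.9%. Among non-cycling wild-type cells alone, the summed members stood at a log2 ratio of LT-HSC-like to lineage-primed cells of -0.07 (-0.10 to -0.03) at homeostasis and -0.22 (-0.26 to -0.19) after 5-FU. No member was then called at homeostasis, where 12.4% of all genes were lower and 19.4% higher, and 4 were lower and none higher after 5-FU, where 10% were lower and 23.9% higher. At homeostasis Ldha turned from -0.33 to 0.17 (0.07 to 0.27) and Tpi1 from -0.26 to 0.27 (0.14 to 0.40). Gapdh and Pgam1 were at -0.31 and -0.23. After 5-FU Gapdh, Pgk1, Pgam1 and Eno1 had ratios of -0.34, -0.39, -0.59 and -0.59, and Tpi1 moved from -0.62 to -0.05 (-0.18 to 0.08). The mix of primed classes changed as well, with lymphoid-primed-like cells 1016 of 1532 non-cycling but 1358 of all 3109 lineage-primed cells at homeostasis. By class, non-cycling LT-HSC-like cells stood at 1221 CPM against 1537 (myeloid), 1377 (megakaryocyte-erythroid) and 1183 CPM (lymphoid). After 5-FU they stood at 2053 against 2923, 2227 and 1997 CPM. The part of this mix in the ratios was not tested. The summed ratio of LT-HSC-like to lineage-primed cells also depended on which clusters were named. Where markers had to be raised 2-fold, no cells were myeloid-primed-like and the summed ratios over all phases were -0.19 and -0.23. At a coarser clustering, again with no such cells, the ratio was -0.047 after 5-FU. The LT-HSC-like cells also changed in these settings, to 729 wild-type cells at homeostasis with 2-fold markers and to 2267 after 5-FU at the coarser clustering. With the clusters of 4 raised LT-HSC markers included, the ratios were -0.35 and -0.53. With genes that differ between genotypes kept in the clustering, 146 wild-type cells after 5-FU were myeloid-primed-like, 1341 were LT-HSC-like and the ratio was -0.20.

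The classes were compared within the knockout pools as well. The summed ratio of LT-HSC-like to lineage-primed knockout cells was -0.25 (-0.29 to -0.22) at homeostasis, with Gpi1, Tpi1, Gapdh, Pgk1 and Pgam1 called lower and Aldoa higher, where 19.2% of all genes were lower and 26.9% higher. After 5-FU it was -0.53 (-0.56 to -0.51), with Tpi1, Gapdh, Pgk1, Pgam1, Eno1 and Ldha lower, where 20.2% of all genes were lower and 38.9% higher.

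Next, cycling cells (S or G2M) were compared with non-cycling cells (G1) of the same pool. No member is among the genes that score the phases. In wild type the summed members were higher in cycling cells, at 1528 CPM (1515 to 1541) against 1274 CPM (1264 to 1285) at homeostasis and 2900 CPM (2877 to 2922) against 2263 CPM (2245 to 2280) after 5-FU. The log2 ratios were 0.26 (0.25 to 0.28) and 0.36 (0.34 to 0.37). Cycling cells also held more RNA, 10666 against 7081 UMIs per cell and 16211 against 9671. At homeostasis 5 members were called higher and 1 lower, where 12% of 14751 genes were higher and 25.3% lower. After 5-FU 6 were higher and 1 lower, where 15.2% of 12573 genes were higher and 33.8% lower. The members' medians were 0.29 and 0.51 beside -0.13 and -0.17 over all genes tested.

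Tpi1, Gapdh, Pgk1, Pgam1 and Ldha were the members higher in cycling cells in both libraries. Tpi1 went from 108 to 167 CPM at homeostasis and from 165 to 256 CPM after 5-FU, a ratio of 0.63 in each. The ratios at homeostasis and after 5-FU were 0.42 and 0.51 for Gapdh, 0.46 and 0.65 for Pgk1, 0.45 and 0.52 for Pgam1, and 0.49 and 0.52 for Ldha. Eno1 was called after 5-FU, at 0.52 (0.44 to 0.60), where its homeostasis value was 0.11 (0.03 to 0.20). Gpi1 and Pkm lay between 0.10 and 0.19.

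Aldoa was the member lower in cycling cells, at 120 against 169 CPM at homeostasis (-0.50, -0.55 to -0.44) and 184 against 231 CPM after 5-FU (-0.32, -0.38 to -0.27). The difference was larger in G2M than in S, with a ratio of G2M to non-cycling cells of -0.91 (-0.98 to -0.83) at homeostasis and -0.79 (-0.87 to -0.70) after 5-FU, and of S to non-cycling cells of -0.19 (-0.25 to -0.13) and -0.06 (-0.13 to 0.00). In knockout cells the S ratio was -0.53 (-0.65 to -0.42) at homeostasis. Pfkl also stood low in G2M, at -0.27 (-0.40 to -0.14) and -0.59 (-0.74 to -0.44). In S its ratios were 0.41 and 0.01, and over both phases 0.12 (0.02 to 0.21) and -0.21 (-0.31 to -0.11). In knockout cells the ratios over both phases spanned 0, at 0.04 (-0.13 to 0.21) and 0.06 (-0.05 to 0.17).

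The summed members peaked in S in both libraries. They stood at 1751 CPM in S and 1296 CPM in G2M at homeostasis, and at 3248 and 2422 CPM after 5-FU. Relative to non-cycling cells the log2 ratios were 0.46 (0.44 to 0.48) in S and 0.02 (0.00 to 0.05) in G2M at homeostasis, and 0.52 (0.50 to 0.54) and 0.10 (0.08 to 0.12) after 5-FU. Each of the 10 members had a higher ratio in S than in G2M in both libraries. Ldha ranged from 0.78 in S to 0.10 in G2M at homeostasis and from 0.71 to 0.20 after 5-FU. Pgk1 had ratios of 0.34 and 0.46 in G2M.

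**Figure D3:**
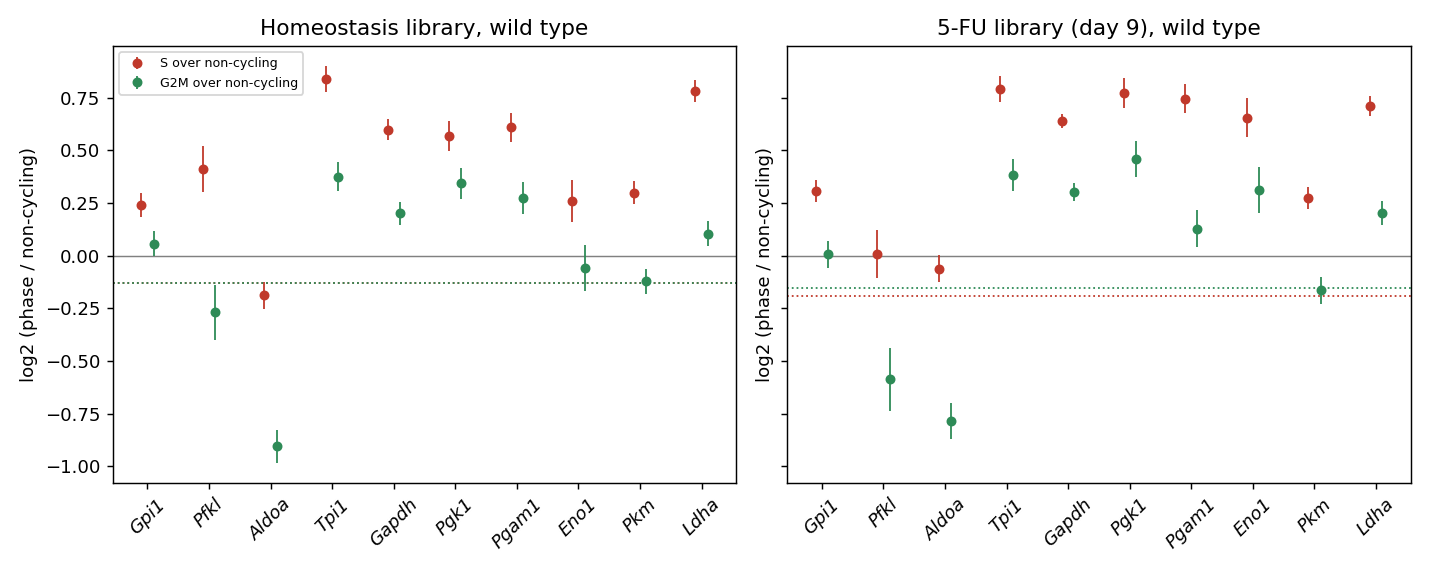
Log2 ratio of S and of G2M cells to non-cycling wild-type cells for each enzyme, by library. Bars are 95% counting intervals and dotted lines the median over all genes tested; every enzyme is higher in S than in G2M, and Aldoa lies at -0.91 and -0.79 in G2M.

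Cycling and primed state overlap, so the ratio was also taken within classes. In wild type at homeostasis the summed ratio of cycling to non-cycling cells was 0.28 (0.22 to 0.33) in myeloid-primed-like, 0.13 (0.06 to 0.20) in megakaryocyte-erythroid-primed-like and 0.29 (0.24 to 0.34) in lymphoid-primed-like cells. After 5-FU it was 0.29, 0.19 and 0.35. In LT-HSC-like cells it was 0.18 (0.10 to 0.25) over 110 cycling cells at homeostasis and 0.05 (-0.05 to 0.14) over 39 cycling cells after 5-FU. In knockout cells of all classes the same ratio was 0.25 (0.22 to 0.28) at homeostasis, with 5 members higher and 1 lower where 14.9% and 26.8% of all genes were, and 0.39 (0.37 to 0.41) after 5-FU, with 6 higher and 1 lower where 17.8% and 38% were. In both libraries Tpi1, Gapdh, Pgk1, Pgam1 and Ldha were among the knockout members called higher, with Eno1 after 5-FU, and Aldoa was the member called lower. Within knockout LT-HSC-like cells the summed ratio was 0.06 (-0.05 to 0.17) over 68 cycling cells at homeostasis and -0.15 (-0.24 to -0.05) over 39 after 5-FU, opposite in sign to the other classes of that library. Aldoa was there at -0.60 (-0.94 to -0.29) and Pkm at -0.52 (-0.83 to -0.25). In the knockout primed classes the ratio was 0.26 in myeloid-primed-like, -0.00 (-0.11 to 0.10) in megakaryocyte-erythroid-primed-like and 0.23 in lymphoid-primed-like cells at homeostasis. The 5-FU ratios in the same order were 0.28, 0.15 and 0.32.

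The members were then followed over all clusters of 50 cells or more, including those left unnamed. At homeostasis the summed level ran from 1047 CPM in a cluster led by the mitotic genes Aspm, Cenpf and Hmmr, of which 94.7% of cells with a phase call were cycling, to 1792 CPM in the myeloid-primed-like cluster. After 5-FU it ran from 1546 CPM in a cluster of shallow cells (2294 UMIs per cell) to 3565 CPM in the myeloid-primed-like cluster. The sum did not follow the cycling share closely across clusters, with Pearson r 0.21 (Spearman rho 0.30) over 12 clusters at homeostasis and 0.44 (0.48) over 10 after 5-FU. Against UMIs per cell, r was 0.01 (rho 0.00) at homeostasis and 0.90 (0.93) after 5-FU. Clusters of 1 library share its depth and its free RNA, and these values are descriptions.

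Across clusters Aldoa followed the other members least. Its r with the summed other members was 0.16 at homeostasis and 0.25 after 5-FU, where the others lay between 0.59 and 0.86 and between 0.55 and 0.95. Aldoa ranged 3.88-fold at homeostasis, from 51.3 CPM in the mitotic cluster to 199 CPM in a cluster led by the interferon-response genes Cxcl10, Ifit1 and Ifit3. Gapdh ranged 3.99-fold after 5-FU, from 260 CPM in the shallow cluster to 1039 CPM in the myeloid-primed-like cluster. Pgam1 ranged 2.46-fold and 3.09-fold, and Ldha 2.47-fold and 3.05-fold.

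**Figure D4:**
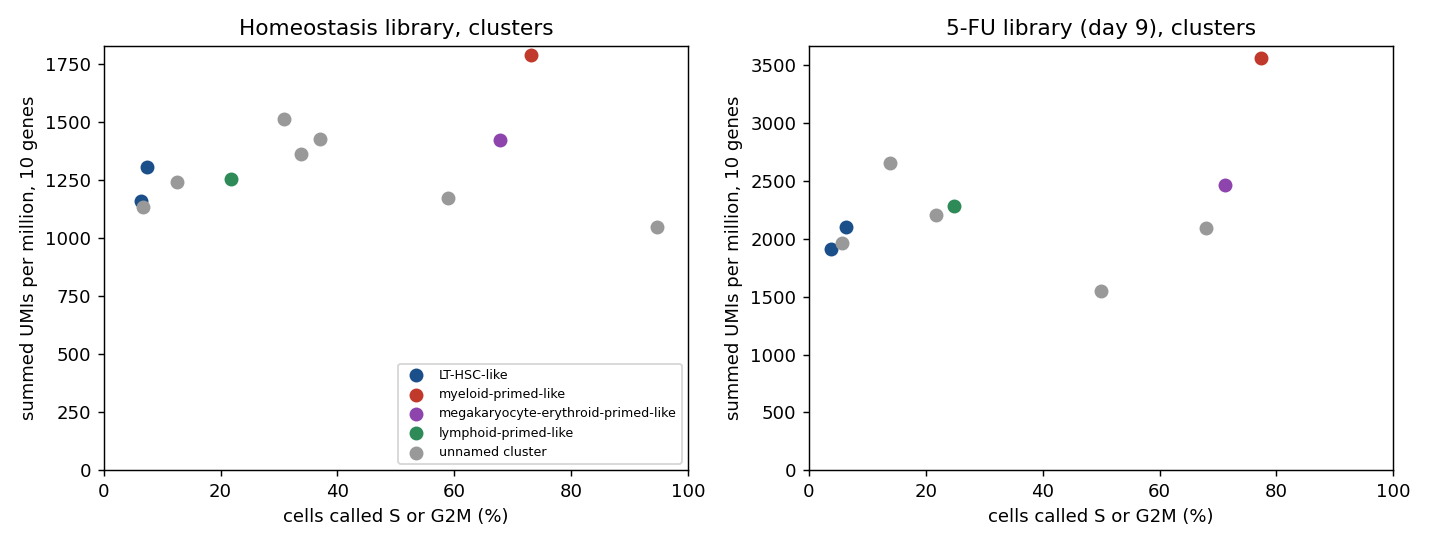
Summed CPM of the 10 enzymes in each cluster against the percentage of its cells with a phase call that were cycling, by library, coloured by class. At homeostasis the cluster with 94.7% cycling cells has the lowest sum, 1047 CPM, and in both libraries the myeloid-primed-like cluster has the highest, 1792 and 3565 CPM. The share of the shallow 5-FU cluster, 50%, rests on a minority of its cells.

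Of 6257 genes outside the fixed lists with at least 20 CPM in both libraries, those most like the summed members across clusters, ranked by the lower of their 2 correlations, were Mif (r 0.95 in each library), Timm13 (0.94 and 0.94), Ppp1r14b (0.92 and 0.93), Prmt1 (0.92 and 0.94) and Nme2 (0.91 and 0.94). Mif encodes a cytokine, Timm13 a chaperone of mitochondrial import, Prmt1 an arginine methyltransferase and Nme2 a nucleoside diphosphate kinase.

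The third comparison was that of knockout with wild-type cells. Over all cells the summed members differed little between genotypes, at 1316 CPM (1303 to 1328) in knockout and 1385 CPM (1377 to 1393) in wild type at homeostasis and at 2601 CPM (2586 to 2616) and 2526 CPM (2513 to 2540) after 5-FU. The log2 ratios of knockout to wild type were -0.07 (-0.09 to -0.06) and 0.04 (0.03 to 0.05). No member was called in either library over all cells in the main setting. Of all genes tested, 9.49% were higher and 8.67% lower in knockout at homeostasis, and 7.6% higher and 10.1% lower after 5-FU. The members' medians were -0.11 and 0.02, beside 0.01 and -0.02 over all genes. With knockout clusters weighted to the wild-type cluster shares, the sums' ratios were -0.04 and 0.09. Where a hashtag had to hold at least 80% of hashtag UMIs, which kept 869 knockout cells at homeostasis, they were -0.14 and 0.0295, and with no trimming or lineage filter -0.055 and 0.14.

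In LT-HSC-like cells the sums were 1222 CPM in knockout and 1233 CPM in wild type at homeostasis, a ratio of -0.01 (-0.05 to 0.03), and 2021 and 2054 CPM after 5-FU, a ratio of -0.02 (-0.06 to 0.01). Again no member was called over the whole class. Among all genes 6.82% were higher and 7.35% lower at homeostasis, and 7.23% and 8.57% after 5-FU. The members furthest from 0 at homeostasis were Tpi1 (-0.30, -0.43 to -0.18), Pfkl (-0.20, -0.42 to 0.01) and Ldha (-0.19, -0.29 to -0.09), and Aldoa was at 0.17 (0.07 to 0.27). After 5-FU they were Pgam1 (0.19, 0.04 to 0.34), Aldoa (0.16, 0.06 to 0.26) and Pfkl (-0.16, -0.35 to 0.03). After 5-FU the 2 LT-HSC-like clusters held the genotypes unequally, 629 wild-type and 297 knockout cells in one and 139 and 489 in the other, and the summed ratio within them was 0.02 (-0.02 to 0.06) and 0.08 (0.00 to 0.16). In the first of these clusters no member was called, where 6.16% of all genes were higher and 7.54% lower. In the second, Pgam1 (0.40, 0.05 to 0.79), Eno1 (0.47, 0.02 to 0.98) and Pkm (0.39, 0.17 to 0.62) were called higher in knockout and none lower, where 4.68% and 4.47% of all genes were. Within these clusters Aldoa was at -0.02 (-0.15 to 0.12) and 0.23 (0.01 to 0.45), and Pfkl at -0.01 (-0.25 to 0.23) and -0.35 (-0.75 to 0.09). At homeostasis Tpi1 was called lower in one of the 2 clusters (-0.40, -0.59 to -0.22), where 6.15% of all genes were lower and 6.97% higher, and no member was called in the other, where 6.78% were lower and 6.87% higher. Among cycling LT-HSC-like cells, 68 knockout and 110 wild-type cells at homeostasis, the summed ratio was -0.11 (-0.24 to 0.02). After 5-FU, over 39 cells of each genotype, it was -0.21 (-0.34 to -0.07). Among non-cycling LT-HSC-like cells the ratios were -0.00 (-0.04 to 0.04) and -0.01 (-0.05 to 0.02).

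Pgam1 was called higher in knockout in each primed class of each library. Its level was 180 CPM in wild type and 247 CPM in knockout myeloid-primed-like cells, 88.9 and 113 CPM in megakaryocyte-erythroid-primed-like cells and 92.2 and 146 CPM in lymphoid-primed-like cells at homeostasis. After 5-FU the pairs were 282 and 361, 97.6 and 126, and 173 and 279 CPM. The ratios at homeostasis were 0.46 (0.34 to 0.58), 0.35 (0.15 to 0.54) and 0.66 (0.49 to 0.83), where 6.22%, 6.64% and 6.64% of all genes were higher. After 5-FU they were 0.36 (0.28 to 0.43), 0.37 (0.25 to 0.48) and 0.69 (0.50 to 0.87), where 6.7%, 6.39% and 5.02% of all genes were higher. In LT-HSC-like cells the Pgam1 ratio was 0.15 (0.01 to 0.30) at homeostasis, and over all cells it was 0.26 (0.20 to 0.31) and 0.27 (0.23 to 0.32) in the 2 libraries.

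Ldha was lower in knockout at homeostasis. It stood at 160 CPM in knockout and 197 CPM in wild type over all cells (-0.30, -0.34 to -0.25), short of the size needed for a call. It was called lower in myeloid-primed-like cells (200 against 271 CPM, -0.44, -0.56 to -0.31) and in lymphoid-primed-like cells (115 against 150 CPM, -0.38, -0.56 to -0.20), where 7.95% and 8.9% of all genes were lower. After 5-FU Ldha was at 365 and 369 CPM over all cells, a ratio of -0.02 (-0.05 to 0.01). Among myeloid-primed-like cells it was then at -0.03 (-0.09 to 0.03), with 10.2% of all genes lower, and among lymphoid-primed-like cells at -0.26 (-0.46 to -0.05). The remaining calls over a whole primed class were Tpi1 (-0.37) and Pfkl (-0.33, -0.66 to -0.01) lower in megakaryocyte-erythroid-primed-like cells at homeostasis, where 6.79% of all genes were, and Eno1 (-0.32, -0.64 to -0.01) lower in lymphoid-primed-like cells after 5-FU, where 6.35% were. In megakaryocyte-erythroid-primed-like cells after 5-FU no member was lower, where 8.07% of all genes were.

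Summed markers of mature cells and of the classes themselves differed between the genotype pools in some of these classes. Megakaryocyte-erythroid-primed-like cells held 2345 CPM of their own markers in knockout and 1479 CPM in wild type at homeostasis. After 5-FU they held 3123 and 2571 CPM. For myeloid-primed-like cells the pairs were 1409 and 1274 CPM, then 1076 and 1498 CPM. For lymphoid-primed-like cells they were 2094 and 2501, then 1216.5 and 1525 CPM, and for LT-HSC-like cells 2680 and 2290, then 1440 and 1228 CPM. The 6 mature neutrophil markers summed to 446 CPM in knockout and 10.9 CPM in wild-type myeloid-primed-like cells at homeostasis, with 1 of the 6 at 0 in each, and to 16.8 and 13.9 CPM after 5-FU. The 5 erythrocyte markers summed to 246 CPM in knockout and 14.7 CPM in wild-type lymphoid-primed-like cells at homeostasis, and to 67.0 and 17.8 CPM after 5-FU. How many cells carried these mature-cell markers was not counted, so a sum can rest on few cells of its class. The neutrophil markers of LT-HSC-like cells were at 10.98 CPM in knockout and 12.4 CPM in wild type at homeostasis. The erythrocyte markers of LT-HSC-like cells were at 39.7 CPM in knockout and 117 CPM in wild type at homeostasis, and at 65.7 and 57.6 CPM after 5-FU. The part of these marker differences in the genotype values was not tested. The summed member ratio by class was -0.02 (-0.06 to 0.02) in myeloid-primed-like, -0.16 (-0.21 to -0.11) in megakaryocyte-erythroid-primed-like and -0.02 (-0.07 to 0.04) in lymphoid-primed-like cells at homeostasis. After 5-FU it was 0.12 (0.10 to 0.14), -0.00 (-0.03 to 0.02) and 0.14 (0.08 to 0.19). Knockout cells were deeper than wild-type cells in that library, with 22712 against 15890 UMIs per cell in myeloid-primed-like, 19079 against 14440 in megakaryocyte-erythroid-primed-like and 12316 against 10043 in lymphoid-primed-like cells. At homeostasis the pairs were 10760 and 10060, 9722 and 9368, and 7907 and 7596. The part of depth in the genotype values was not tested.

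**Figure D5:**
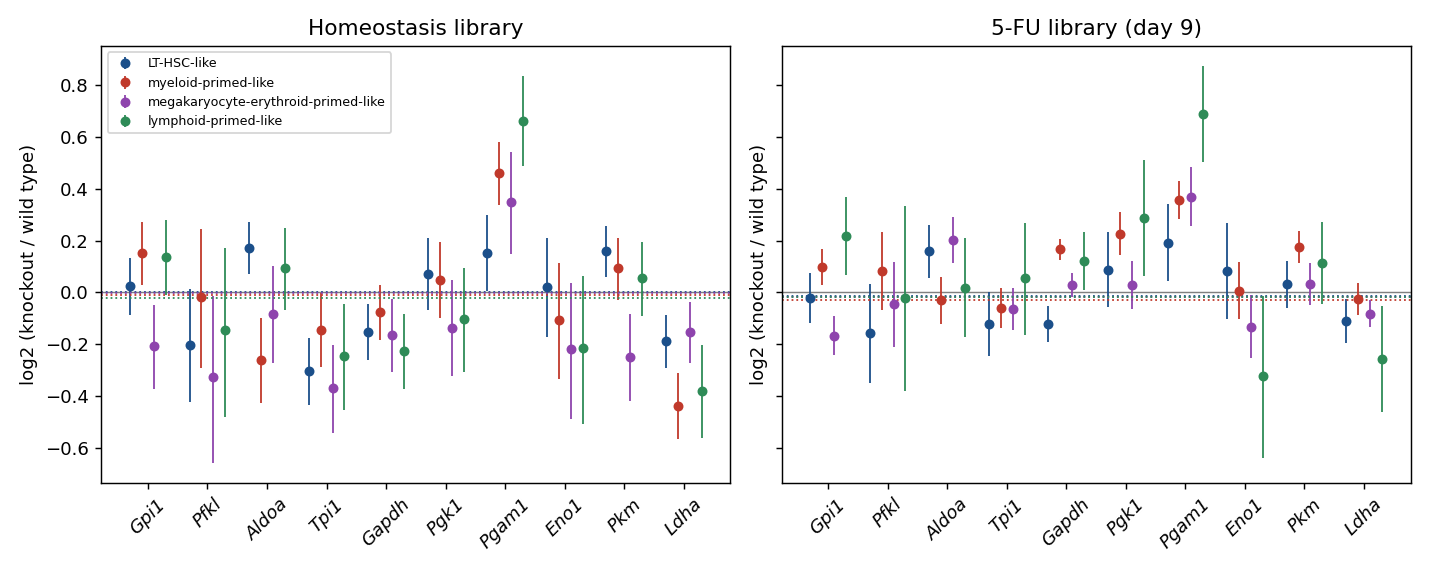
Log2 ratio of knockout to wild type for each enzyme in each class, by library. Bars are 95% counting intervals and dotted lines the median over all genes tested; Pgam1 lies between 0.35 and 0.69 in the 3 primed classes of both libraries, and at 0.15 and 0.19 in LT-HSC-like cells.

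Genes of the surrounding pathways, from lists of related metabolism, were counted by the same calls. The background of all genes for LT-HSC-like over lineage-primed wild-type cells was the 26.1% higher and 17.6% lower at homeostasis and the 37.4% and 18.3% after 5-FU given above. Between LT-HSC-like and lineage-primed wild-type cells, the other isoforms and the hexokinases gave 6 higher and 1 lower of 10 tested at homeostasis and 5 higher and 1 lower of 9 after 5-FU, with medians of 0.45 and 0.48. Aldoc, the brain-type aldolase, was at 5.58 against 2.33 CPM at homeostasis (1.26) and 19.9 against 3.67 CPM after 5-FU (2.43). Hk2, the inducible hexokinase, was higher in LT-HSC-like cells at 0.64 and 0.89. Hk1 was at 0.19 and -0.09 and not called. Hk3 was lower at homeostasis (-0.72) and at -0.29 (-0.63 to 0.03) after 5-FU. The calls of this list were mostly towards LT-HSC-like cells, those of the core enzymes towards lineage-primed cells.

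For the other lists of this comparison, the TCA cycle gave 7 lower and none higher of 16 at homeostasis and 8 lower and none higher after 5-FU, with medians of -0.28 and -0.30. The pentose phosphate pathway, which branches from glucose-6-phosphate, gave 3 and 4 lower of 7 and none higher, with medians of -0.26 and -0.52. Glucose and lactate transporters gave 2 higher and 2 lower of 5, then 3 and 2. Slc16a3, a lactate exporter, was at -1.24 and -1.48 from levels of at most 4.65 CPM, and Slc16a1, a lactate and pyruvate transporter, was at -1.40 after 5-FU. Enzymes that set fructose-2,6-bisphosphate, the activator of phosphofructokinase, gave 2 higher of 5 and 3 higher of 4, none lower. Genes of pyruvate entry into mitochondria gave 3 higher and 1 lower of 12, then 3 and 2, among them Pdk2, a kinase that restrains pyruvate dehydrogenase, at 1.18 after 5-FU.

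HIF and Myc regulators gave 4 higher and 1 lower of 9 at homeostasis and 3 and 1 after 5-FU. Mycn was at 63.4 CPM in LT-HSC-like and 22.6 CPM in lineage-primed wild-type cells at homeostasis (1.49), and Myc was at 46.3 and 113 CPM after 5-FU (-1.29). Hif1a was at 0.09 (-0.06 to 0.24) and 0.28 (0.07 to 0.48), neither called. HIF targets outside glycolysis gave 3 higher and 3 lower of 13, then 5 and 3, with Egln3, an oxygen-sensing hydroxylase, at -1.15 and Higd1a, a mitochondrial hypoxia protein, at -0.83 at homeostasis.

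In the comparison of cycling with non-cycling wild-type cells, 12% of all genes were higher and 25.3% lower at homeostasis and 15.2% and 33.8% after 5-FU. The TCA cycle gave 4 higher of 16 at homeostasis and 5 after 5-FU, none lower, with medians of 0.17 and 0.21. The pentose phosphate pathway gave 2 higher of 7 in each library and none lower. The other isoforms gave none higher and 5 lower of 11 at homeostasis and 1 higher and 4 lower after 5-FU. Fructose-2,6-bisphosphate enzymes gave 1 higher and 2 lower of 5 in each library, transporters 1 higher and 1 lower of 6, then 1 and 3 of 5, and pyruvate entry 0 higher and 2 lower of 12, then 1 and 2. HIF and Myc regulators gave 2 lower of 9, then 4, and HIF targets 1 higher and 2 lower of 13, then 2 and 4.

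Idh3a, a subunit of the TCA cycle's isocitrate dehydrogenase, was among the highest at 0.64 and 0.74. Slc16a1 was at 0.70 and 1.36, and Pfkfb1, one of the fructose-2,6-bisphosphate enzymes, at 0.86 and 0.94 from levels of at most 4.85 CPM. Furthest down were Eno2, the neuronal enolase, from at most 1.65 CPM (-1.01 and -1.85), and Aldoc (-0.99 and -1.70), joined by Ddit4, an inhibitor of mTOR signalling, at homeostasis (-0.85) and Ldhb after 5-FU (-1.19). Ldhb was at -0.52 at homeostasis. Ldha and Ldhb lay on opposite sides in this comparison. Between LT-HSC-like and lineage-primed cells they did so over all phases, but among non-cycling cells at homeostasis both were higher in LT-HSC-like cells, at 0.17 and 0.76.

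Between genotypes over all cells, no gene of the pentose phosphate pathway or TCA cycle was called in either library, where 9.49% of all genes were higher and 8.67% lower at homeostasis and 7.6% and 10.1% after 5-FU. The other isoforms gave 4 higher of 12 at homeostasis, none lower, and 1 higher and 1 lower of 11 after 5-FU. Ldhb was higher in knockout in both libraries, at 83.0 against 47.7 CPM (0.80, 0.73 to 0.87) and 80.1 against 48.8 CPM (0.72, 0.64 to 0.79), and also in LT-HSC-like cells alone, at 95.2 against 70.5 CPM (0.43, 0.29 to 0.58) and 121 against 85.7 CPM (0.50, 0.35 to 0.65). Hk2 was higher in knockout LT-HSC-like cells at homeostasis (0.39, 0.17 to 0.62) and lower after 5-FU (-0.40, -0.73 to -0.07). Transporters gave 1 lower of 6 at homeostasis and none after 5-FU, fructose-2,6-bisphosphate enzymes 1 higher of 5, then 1 lower, pyruvate entry 1 higher of 12, then none, HIF and Myc regulators 1 higher of 10, then 1 higher and 1 lower, and HIF targets 1 higher and 2 lower of 13, then 2 lower.

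Mycn was higher in knockout over all cells at 0.51 and 0.36, and after 5-FU, within the LT-HSC-like class, it stood at 105 against 48.5 CPM (1.11, 0.92 to 1.30). Myc was lower after 5-FU (-0.54). Ddit4 was higher at homeostasis (0.79). At homeostasis Slc16a1 (-0.56), Ndrg1, a hypoxia-induced gene (-0.55), and Egln3 (-0.51) were furthest down, and after 5-FU Aldoc (-1.27) and Tigar, which lowers fructose-2,6-bisphosphate, from 2.06 CPM in wild type (-0.48). Hif1a was at 0.08 and 0.04. In LT-HSC-like cells Pdp1, the phosphatase that activates pyruvate dehydrogenase, was higher in both libraries at 0.80 and 0.66. Pfkfb2 (0.48) and Ddit4 (0.68) were also higher there at homeostasis, with Pfkfb1 (-0.94), Egln3 (-0.92) and Ndrg1 (-0.79) lower, and Pfkfb3 (0.58) was higher after 5-FU, with Aldoc (-1.55) and Slc16a7, a pyruvate transporter (-0.52), lower. These LT-HSC-like values after 5-FU, and those of Ldhb, Hk2 and Mycn, pool clusters that held the genotypes unequally. The part of that imbalance in the ratios was not tested.

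Some properties of the libraries bear on all these values. Barcodes with 100 UMIs or fewer at homeostasis, which mostly hold free RNA, gave 1689 CPM for the summed members against 1366 CPM in the cells kept, and all 10 were present in them. Aldoa stood at 229 CPM in these barcodes against 150 CPM in the cells kept. Gpi1 alone was lower in them, at 166 against 173 CPM. The share of free RNA in each class was not measured, and its part in the class and phase values was not tested. The related genes checked, Eno1b, Aldoart1, Aldoart2, Gapdhs, Ldhal6b and Pgk2, held at most 139 UMIs, except Gapdhs with 434 UMIs at homeostasis. Other copies were not checked, and reads that members lost to copies were not measured. In wild type, genes spanning over 100 kb stood 1.68 log2 units higher at homeostasis than after 5-FU and those of up to 5 kb 0.36 lower (-0.36), a difference between libraries that keeps member levels from being set against each other across them. The cells of the libraries shared 76 barcodes.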

How the data were processed

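The deposited matrices hold UMI counts per gene and barcode, which the authors made with Cell Ranger (versions 4 and 6.0.1 in the matrix headers). The submitters' notes name the mm9 build, Seurat and DESeq2. The homeostasis matrix was unfiltered, and barcodes with at least 2921 UMIs were kept as cells. Its genes were named from the 5-FU feature list. In that row order the log UMI totals per row of the 2 matrices correlated at 0.93, against 0.39 when shifted by 1 row. Genotypes were called from hashtag counts with HTODemux (Seurat 5.3.0, quantile 0.99). Unlabelled cells (26.3% and 25.8%) and doublets of both hashtags (6.02% and 3.40%) were left out. Doublets of 1 genotype remain. The top and bottom 2% of cells in genes, UMIs and mitochondrial share, and cells with at least 2 UMIs over 9 lineage genes, were removed. The study's removal of lineage-primed cells was not applied, since those cells are compared here.

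Cells were clustered with scanpy 1.11.5 (2000 variable genes, 30 components, 20 neighbours, Leiden resolution 1) and named where a cluster of at least 50 cells raised over 50% of the markers of 1 class 1.5-fold, at least 3 of them and a larger share than for any other class, and its leading genes did not hold as many markers of another. This share was set after earlier results were known. The clustering used none of the genes of the lists described, no cycle genes and no genes that differed 1.5-fold by genotype, a choice made after seeing clusters. For phase calls each cell was thinned to 4000 UMIs, which left cells of lower depth without a phase. Within 0.02 of a phase boundary lay 5.35% and 6.63% of the wild-type cells with a phase.

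Summed UMIs plus 0.5 over pool totals gave log2 ratios with exact conditional binomial 95% intervals. The ratio function was tested on simulated data. The text names all members, at most 3 called genes each way of the other lists in each comparison, the hexokinases, Ldhb and Hif1a, and the 5 genes most like the members. The members and lists were chosen with earlier results of these data known. Alternatives changed hashtag calling, scaling, filters, clustering and phase calls. All columns of values belonged to a sample (0 left over).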

Additional observations from a re-analysis of the deposited data

Results flagged for a closer look

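With 1 pool in each group, none of the differences below was tested. Each was picked because its counting intervals lay on opposite sides of 0 in the 2 settings compared. The log2 ratio of cycling to non-cycling wild-type cells of Pfkl was 0.33 lower after 5-FU than at homeostasis (-0.33), with 0.12 at homeostasis and -0.21 after 5-FU. In knockout cells the Pfkl ratios were 0.04 (-0.13 to 0.21) and 0.06 (-0.05 to 0.17), so the wild-type difference was not seen there. The ratio of knockout to wild type over all cells was higher after 5-FU than at homeostasis by 0.26 for Gapdh (from -0.20 to 0.05), by 0.21 for Pgk1 (from -0.06 to 0.15) and by 0.12 for the summed members (from -0.07 to 0.04). At homeostasis the genotype ratio of Aldoa was 0.29 higher in LT-HSC-like than in lineage-primed cells. In 1 LT-HSC-like cluster Aldoa stood at 212 CPM in knockout against 172 CPM in wild type, in the other at 169 against 164 CPM. After 5-FU the genotype ratio of Gapdh was lower in LT-HSC-like than in lineage-primed cells, by a difference of -0.18. Within the 2 LT-HSC-like clusters, which hold the genotypes unequally, the Gapdh ratio was however 0.01 (-0.07 to 0.10) and 0.04 (-0.12 to 0.21). The first 4 of these set 1 library against the other, where condition and library cannot be told apart.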

How the results depend on the processing

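For the 8 summed comparisons of the members, 82 alternatives were computed. Of these 38 moved the log2 ratio by less than its counting interval, 44 moved it by more, and 0 turned a value whose interval left out 0. The sign changed in 10, all for knockout over wild type in LT-HSC-like cells, whose intervals spanned 0 in both libraries. For single members 551 of 740 alternatives moved the ratio by less and 186 by more, and 3 turned the sign of a called value. For single members the sign changed in 49 in all, these 3 included. Except where stated, the cause was not tested. The ratio of LT-HSC-like to lineage-primed wild-type cells changed with which clusters were named. With markers required at 2-fold it was -0.19 at homeostasis and -0.23 after 5-FU, and at Leiden resolution 0.5 it was -0.047 after 5-FU, settings in which no cells were myeloid-primed-like. The LT-HSC-like wild-type cells changed in number there as well, from 1646 to 729 at 2-fold markers at homeostasis and from 768 to 2267 at resolution 0.5 after 5-FU. Naming clusters with at least 3 raised markers of any share, also chosen after seeing the data, gave -0.35 and -0.53. With the genes that differ between genotypes kept in the clustering, another such alternative, it was -0.20 after 5-FU. Among non-cycling cells it was -0.067 and -0.22, and in knockout cells -0.25 and -0.53. Over cells whose hashtag held at least 80% of hashtag UMIs it was -0.36 at homeostasis, and with mitochondrial and ribosomal protein genes out of the totals -0.52 after 5-FU. Setting the median gene ratio to 0 gave -0.38 and -0.68, the mean of per-cell CPM -0.26 and -0.41, leaving out the member with the most UMIs -0.25 and -0.41, and no trimming or lineage filter -0.34 and -0.53. For cycling over non-cycling cells, the median setting gave 0.39 and 0.53, the sum without the largest member 0.23 and 0.30, the upper against the lower quartile of cells by cycle-gene UMIs 0.30 and 0.40, and LT-HSC-like cells alone 0.18 and 0.047. After 5-FU the per-cell mean gave 0.32, no trimming 0.40 and knockout cells 0.39. For knockout over wild type over all cells, the 80% hashtag rule gave -0.14 and 0.0295, no trimming -0.055 and 0.14, and weighting knockout cells to the wild-type cluster shares -0.041 and 0.0885. The sum without the largest member gave -0.051 at homeostasis, and after 5-FU the median setting gave 0.061 and the per-cell mean 0.0298. In LT-HSC-like cells it was -0.088 under the 80% rule at homeostasis, and 0.019 and 0.080 in the single LT-HSC-like clusters after 5-FU, also chosen after seeing the data, and 0.0196 there with at least 3 markers of any share. Called members that changed sign were Ldha in LT-HSC-like over lineage-primed cells (0.17 among non-cycling cells at homeostasis) and Pgam1 (-0.028) and Eno1 (-0.0060) in cycling over non-cycling cells when only LT-HSC-like cells were used after 5-FU. Among those not called, Pkm in LT-HSC-like over lineage-primed cells went after 5-FU from -0.15 to 0.29 at 2-fold markers and 0.33 at resolution 0.5, and Tpi1 among non-cycling cells at homeostasis from -0.26 to 0.27. Pfkl in cycling over non-cycling cells after 5-FU went from -0.21 to 0.060 in knockout cells. No paired analysis was possible because each library held 1 pool of each genotype, and for the same reason no replicate could be left out.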
